A study of Mus musculus with 2 samples.

Results

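The gamma and delta chain genes are 5 of the 32285 genes in the feature list: Trdc, which encodes the constant region of the T cell receptor delta chain, the gamma chain constant genes Tcrg-C1, Tcrg-C2 and Tcrg-C4, and Trgv2. They were taken by symbol and read in every barcode with at least 500 detected genes and under 10% of its unique molecular identifiers (UMIs, each a count of 1 captured transcript) from mitochondrial genes. This left 7163 of 7866 control barcodes and 8353 of 10111 NK-depleted barcodes. Trgv2 is annotated as a variable segment and not as a constant gene, and the other 4 members are annotated as constant genes.

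The study compared CD8+ cells of MC38 tumours, grown from a colon carcinoma line of the mouse, between control mice and mice depleted of natural killer (NK) cells, to ask how NK cells bear on CD8+ T cell differentiation. Each group is 1 library: wild-type (WT) tumour-bearing mice labelled PBS (control) and wild-type mice labelled a-NK1.1 antibody (NK-depleted), both taken on day 9 after implantation. The library name of the control carries "Iso" while its treatment label is PBS, and the sources used here do not give how many mice went into a library. Collagenase released the cells, a flow sorter took the live CD8+ ones, and the 10x Genomics 5' kit counted the start of their transcripts.

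A T cell receptor is either an alpha beta or a gamma delta pair. The mouse gamma locus is built of cassettes with their own variable, joining and constant segments, and it can be rearranged or transcribed in cells that go on to carry an alpha beta receptor. The delta genes lie inside the alpha locus, so that a joint of alpha segments removes Trdc from that chromosome. A sort on CD8 therefore need not be free of gamma and delta transcripts, and a transcript of a constant gene alone does not show a receptor chain at the surface.

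The control library held 108106687 UMIs and the NK-depleted one 128853437, with medians of 11168 and 12082 UMIs per kept cell. With no replicate there is neither a test nor a p-value, and how far mice differ from each other is unknown. Intervals are exact 95% intervals that cover counting error only. Those of levels and of ratios of levels take each UMI as a separate count and are too narrow where few cells hold many UMIs. Both libraries share 391 barcodes, 136 of them among kept cells of both, and results without these barcodes are given in the closing section. The sort was checked on its own genes: control and NK-depleted cells held Cd8a at 872 and 692 CPM (counts per 1000000 UMIs of the same cells), Cd3e at 634 and 546 CPM, and Cd4 at 0.522 and 0.246 CPM. Clusters led by genes of other cells were a macrophage or monocyte-like cluster of 200 and 96 cells and a dendritic cell-like cluster of 139 and 103 cells. Unnamed cluster 9, led by Shisal2b, Rhox5, Cald1, Ccl2 and Fn1 with 2 of 6 fibroblast markers raised, counted 149 and 494 cells, and unnamed cluster 16, with 5 of 10 NK cell markers raised, counted 10 and 2. These last clusters held 1 and 2, and 0 and 0, Trdc UMIs. No doublet caller was run, so doublets remain, and leaving out the 8% of cells with most UMIs in each library is the alternative given for them.

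The gamma members lie on chromosome 13 of GRCm38, Tcrg-C1 at 19214103 to 19217024 and Tcrg-C4 at 19344558 to 19352756 on the plus strand, and Tcrg-C2 at 19304649 to 19307551 and Trgv2 at 19336573 to 19337167 on the minus strand. Trdc lies on chromosome 14 at 54142851 to 54148868 on the plus strand. The start of the first constant exon is shown for the gamma constant genes because it sets how far counts of Tcrg-C1, Tcrg-C2 and Tcrg-C4 can be told apart in a library of transcript starts. Tcrg-C3, the remaining constant gene of the locus, is shown beside them. Each run gives the first 150 bases of the exon on the coding strand, 5′ to 3′ from the GENCODE transcripts of GRCm38, with bases that differ from Tcrg-C1 in capitals. The runs lie at chr13:19214103-19214252 (plus strand) for Tcrg-C1, chr13:19307402-19307551 (minus) for Tcrg-C2, chr13:19260885-19261034 (plus) for Tcrg-C3 and chr13:19344558-19344707 (plus) for Tcrg-C4.
Tcrg-C1: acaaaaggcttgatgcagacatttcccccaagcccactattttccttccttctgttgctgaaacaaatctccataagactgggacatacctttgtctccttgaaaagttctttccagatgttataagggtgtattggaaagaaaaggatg
Tcrg-C2: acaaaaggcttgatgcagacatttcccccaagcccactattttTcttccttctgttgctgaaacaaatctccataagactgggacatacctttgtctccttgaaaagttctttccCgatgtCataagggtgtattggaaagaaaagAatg
Tcrg-C3: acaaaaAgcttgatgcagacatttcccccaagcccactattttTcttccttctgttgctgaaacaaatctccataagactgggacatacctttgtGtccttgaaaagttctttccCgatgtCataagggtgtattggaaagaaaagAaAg
Tcrg-C4: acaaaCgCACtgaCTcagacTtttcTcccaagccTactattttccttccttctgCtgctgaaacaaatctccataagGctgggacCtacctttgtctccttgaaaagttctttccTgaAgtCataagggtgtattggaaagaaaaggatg
Over the whole first exon of 330 bases, Tcrg-C2 differed from Tcrg-C1 at 9 bases (97.3% identity) and the longest identical run was 71 bases. Tcrg-C3 matched Tcrg-C1 at 96.1%. Tcrg-C4 stood further off, with 82.1% identity to Tcrg-C1, 59 differences and no identical run over 29 bases. Reads of Tcrg-C1, Tcrg-C2 and Tcrg-C3 can therefore be lost or split among these genes by the authors' counting, and their values are uncertain in that respect. Tcrg-C3 itself had 7 and 9 UMIs.

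All 5 members were higher in the NK-depleted library than in the control library. Trdc had 224 UMIs in control cells and 689 in NK-depleted cells, 2.09 and 5.47 CPM, a ratio of 2.62 (2.25 to 3.06). These Trdc UMIs came from 56 and 135 cells, so this interval is too narrow. Tcrg-C4 had 253 and 809 UMIs, 2.36 and 6.43 CPM, a ratio of 2.73 (2.36 to 3.15). These delta and gamma constant genes showed the largest ratios of the 5. Trgv2, the variable segment, stood at 12.5 and 20.3 CPM, a ratio of 1.63 (1.52 to 1.74). Tcrg-C2 stood at 10.9 and 16.2 CPM with a ratio of 1.48 (1.38 to 1.60), and Tcrg-C1 at 3.59 and 4.75 CPM with a ratio of 1.32 (1.16 to 1.51). With a fold of 1.5 as the mark, 3 of 5 members were higher and none lower, where 2.75% of 12383 genes with at least 100 UMIs over both libraries were higher by that fold and 7.19% were lower. The median log2 ratio over these genes was -0.07, and by ratio Tcrg-C4 ranked 50 and Trdc 56 of them. With factors that centre the genes (TMM or median of ratios) Tcrg-C2 also passed 1.5-fold, and Trgv2 was below it when each cell's CPM was averaged or the 8% of cells with most UMIs were left out.

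The share of cells with at least 1 UMI followed the same order of libraries. To compare shares at 1 depth, each cell was thinned to 4900 UMIs, leaving 6456 control and 7601 NK-depleted cells and leaving out 707 and 752 shallower cells. Tcrg-C4 was then found in 1.12% of control cells and 2.83% of NK-depleted cells (2.09% and 4.92% unthinned). Trgv2 was found in 4.71% and 6.54% (7.61% and 12.0% unthinned), Tcrg-C2 in 4.45% and 5.54%, and Tcrg-C1 in 1.5% and 2.32%. Any gamma member was found in 8.43% and 12.0% of thinned cells. The plot of levels and shares shows that the shares separate less than the CPM for Trgv2 and Tcrg-C2.

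**Figure D1:**
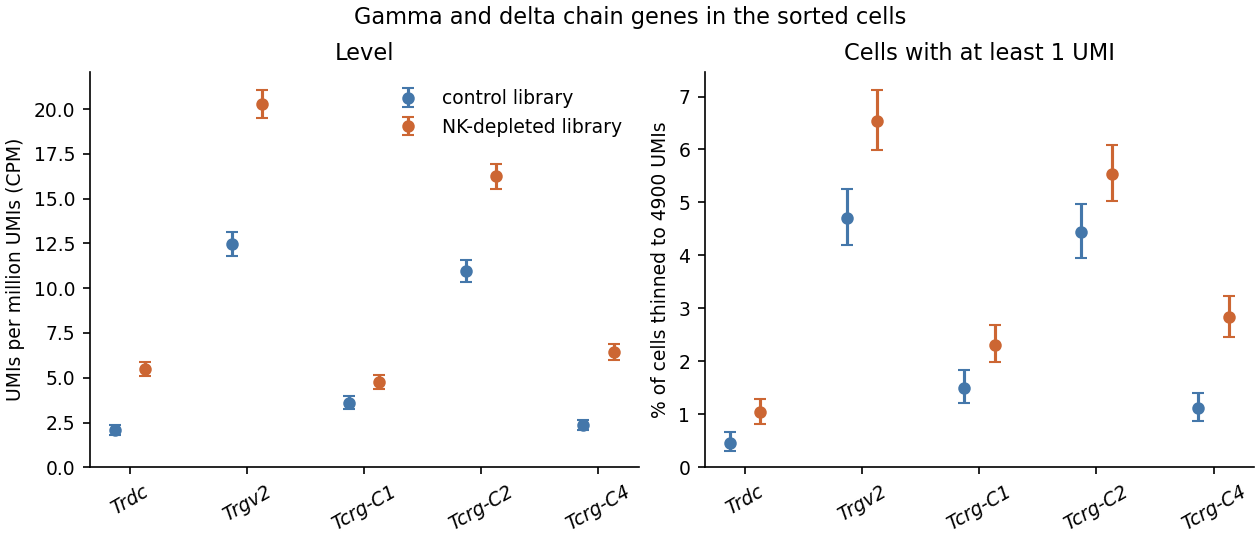
Level in CPM (left) and share of cells with at least 1 UMI after thinning to 4900 UMIs (right) of each member in the control (blue) and NK-depleted (orange) library, with exact 95% counting intervals. Trdc stood at 2.09 and 5.47 CPM and Tcrg-C4 at 2.36 and 6.43 CPM, and Tcrg-C1 was closer at 3.59 and 4.75 CPM.

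Cells of other types bear on how such shares are read, and no cluster free of T cell transcripts served as a background. The dendritic cell-like cluster held a gamma member in 5.22% of 134 thinned control cells (2.13% to 10.5%) and in 6.86% of 102 NK-depleted cells (2.80% to 13.6%), at median depths of 20081 and 22093 UMIs before thinning. It also had Cd8b1 at 745 and 690 CPM and Cd8a at 602 and 582 CPM, so T cell RNA was present in it and its gamma share is not a measure of free RNA alone. Its Trdc share was 0.746% and 0.980%, each from 1 cell, and in the NK-depleted library that cell held all 14 Trdc UMIs of the cluster. Tcrg-C4 was in 0 of 134 and 0 of 102 of these cells, which allows shares of up to 2.24% and 2.94%. The shares of all cells with Trdc, 0.465% and 1.04% after thinning, lie within the range that these few cells allow, and no difference between libraries is read from them. The shares of all cells with any gamma member, 8.43% and 12.0%, and with Tcrg-C4, 1.12% and 2.83%, also lie within this cluster's ranges. The limit is therefore not particular to Trdc. The part of free RNA and of doublets in the shares of all members was not tested.

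Trdc differed from the gamma genes in how its UMIs were spread over cells. It was found in 56 control cells (0.782%) and 135 NK-depleted cells (1.62%), but 16 and 45 cells with at least 5 UMIs held 73.7% and 78.8% of its UMIs, with up to 21 and 51 UMIs in a cell. For Tcrg-C4 only 5 and 31 cells reached 5 UMIs, and they held 11.5% and 21.9% of its UMIs. Trgv2 lay between, with 68 and 146 such cells holding 35.5% and 39.5%. Leaving out the 5 cells with most Trdc UMIs in each library moved its log2 ratio from 1.39 to 1.69. These 5 are a larger part of 56 control than of 135 NK-depleted positive cells. The change thus cannot show whether the higher level of Trdc rests on few cells.

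Cells with many Trdc UMIs also carried gamma constant transcripts and still carried alpha beta transcripts. Among cells with at least 5 Trdc UMIs, 9 of 16 control cells (56.3%) and 29 of 45 NK-depleted cells (64.4%) had a Tcrg-C UMI, against 9.93% and 14.8% of cells without Trdc. A beta constant UMI (Trbc1 or Trbc2) was present in 16 of 16 and 45 of 45 of them, beside 98.0% and 98.6% of cells without Trdc. Trac, the alpha constant gene, was found in 12 of 16 and 37 of 45, at 377 and 425 CPM against 833 and 704 CPM in cells without Trdc. No cell with 2 or more Trdc UMIs lacked both Trac and the beta constant genes, and none had Cd4. Both were rare in cells without Trdc too: 108 of 7107 and 79 of 8218 lacked all these genes, and 0.535% and 0.341% had Cd4. Cells with a single Trdc UMI were nearer the cells without Trdc, with a Tcrg-C UMI in 6.90% of 29 control cells and 19.0% of 58 NK-depleted cells. Beta constant transcripts alone do not show a complete receptor.

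**Figure D2:**
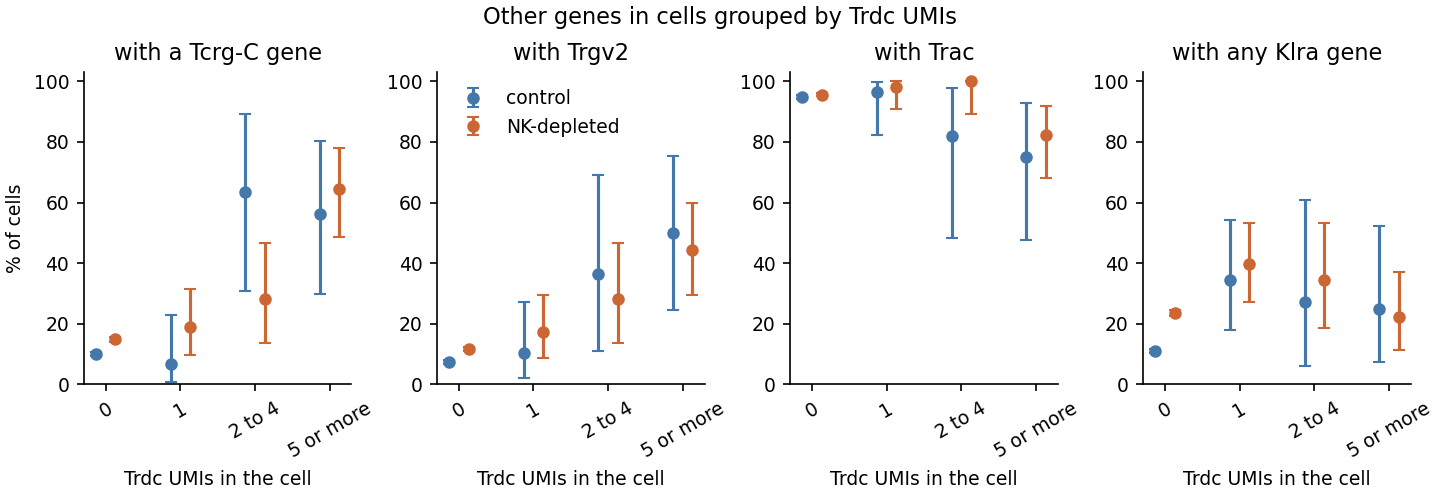
Share of cells with a UMI of a Tcrg-C member, Trgv2, Trac or any Klra gene, in cells grouped by their Trdc UMIs, for the control (blue) and NK-depleted (orange) library, unthinned, with exact 95% intervals. The Tcrg-C share was 9.93% and 14.8% in cells without Trdc and 56.3% and 64.4% in cells with at least 5 Trdc UMIs, while the Trac share was lowest in the latter cells, at 75.0% and 82.2%.

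Particular variable segments were found in the cells that held particular constant genes. Of control cells with Trgv2, 66.4% also had Tcrg-C2, against 2.51% of cells without Trgv2, and in the NK-depleted library these shares were 62.1% and 4.34%. Tcrg-V1, a gamma variable segment, was in 14.0% and 12.7% of cells with Tcrg-C4 and in 0.271% and 0.290% of cells without it. Tcrg-V4 was in 10.6% and 10.2% of cells with Tcrg-C1, against 0.273% and 0.212% of the remaining cells. Tcrg-V6, a variable segment known from interleukin 17-producing gamma delta T cells, was in 11.5% and 3.31% of cells with Tcrg-C1. Its total was 50 UMIs in the control and 27 UMIs after depletion, which is 0.460 of the control CPM (0.277 to 0.749) and opposite to the members.

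Delta variable segments were scarce. Trdv4 was in 8.93% and 5.19% of cells with Trdc and in 0.0563% and 0.0730% of cells without it. Trdv2-2 was in 6.67% of Trdc-positive NK-depleted cells, 9 of 135, against 0.158% of negative cells. Of the cells with at least 5 Trdc UMIs, 7 of 16 control and 21 of 45 NK-depleted cells had a delta variable segment, segments shared by the alpha and delta loci included, beside 470 of 7107 and 624 of 8218 cells without Trdc. The gamma and delta joining segments and the delta D segments were at 0 in both libraries, and no receptor sequences were used here, so whether a joint was productive could not be read.

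Most cells with a gamma transcript had alpha beta genes. At 4900 UMIs a beta constant UMI was found in 544 of 544 gamma-positive control cells and in 912 of 913 gamma-positive NK-depleted cells. Trac was found in 95% and 91.6% of gamma-positive cells, and in 94.7% and 93.5% of gamma-negative cells. Cells with Trdc had Trac less often, in 76.7% of 30 (57.7% to 90.1%) and 78.5% of 79 (67.8% to 86.9%), against 94.8% and 93.4% of cells without Trdc.

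Cd8b1, which encodes the beta chain of the CD8 co-receptor and sets CD8 alpha beta apart from CD8 alpha alpha, was found less often in cells with each member. Of thinned cells with Tcrg-C4, 52.8% in the control library (40.7% to 64.7%, n = 72 cells) and 52.1% in the NK-depleted library (45.2% to 58.9%, n = 215 cells) had a Cd8b1 UMI, against 95.7% and 92.5% of cells without Tcrg-C4. Trgv2-positive cells had Cd8b1 in 78.6% and 68.8%, and Tcrg-C2-positive cells in 80.8% and 64.4%. For Tcrg-C1 the shares were 79.4% and 67.0%, and for Trdc 66.7% and 77.2%. Cd8a, the alpha chain, stayed more frequent, at 80.6% and 84.7% of Tcrg-C4-positive cells against 94.6% and 91.9% of negative cells. The gap in Cd8b1 was smaller without thinning. Cd8b1 CPM, which does not depend on the number of UMIs per cell, was also lower: 483 against 1136 CPM in control cells with and without Tcrg-C4, and 440 against 890 CPM in NK-depleted cells.

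**Figure D3:**
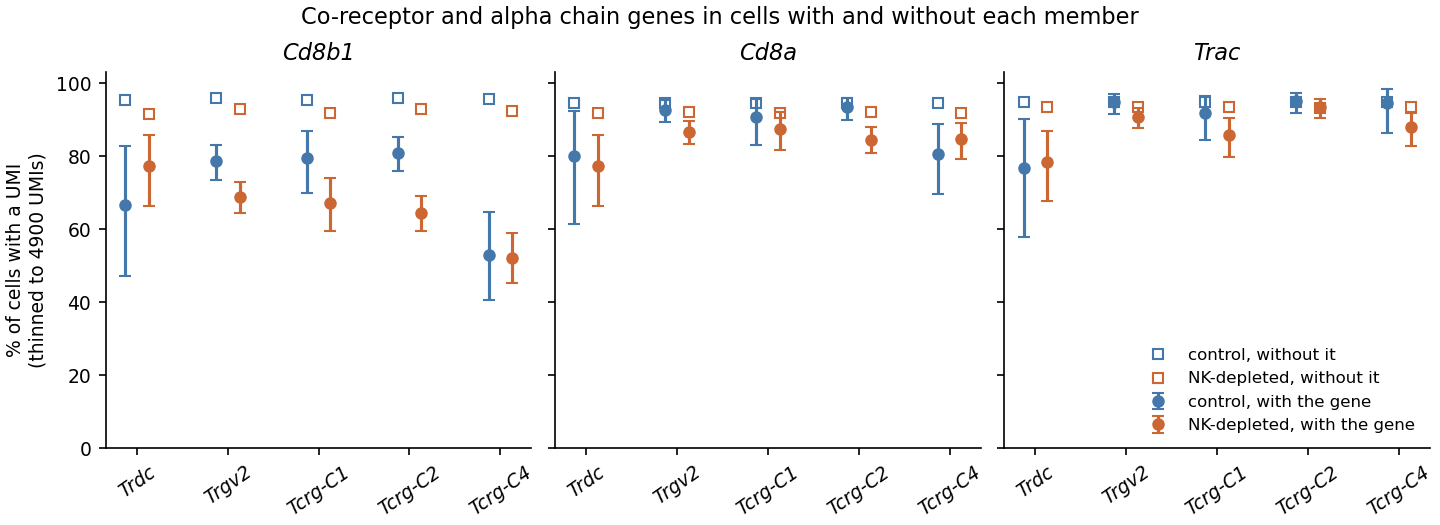
Share of cells with a UMI of Cd8b1, Cd8a or Trac among cells with (filled circles, exact 95% intervals) and without (open squares) each member, after thinning to 4900 UMIs, in the control (blue) and NK-depleted (orange) library. Cd8b1 was found in 52.8% and 52.1% of Tcrg-C4-positive cells, below Cd8a in the same cells at 80.6% and 84.7%.

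Read from the side of the co-receptor, gamma transcripts were frequent in cells that had Cd8a without Cd8b1. At 4900 UMIs such cells were 3.49% of control cells (225) and 7.04% of NK-depleted cells (535). A gamma member was found in 39.1% (32.7% to 45.8%) and 41.3% (37.1% to 45.6%) of them, against 7.0% and 8.92% of cells with both co-receptor genes. The gap held among cells with a Klra gene, which encodes a Ly49 receptor of the lectin-like family known from NK cells, with 58.1% against 21.5% in the control and 55.9% against 19.8% in the NK-depleted library. Among cells without a Klra UMI it was 18.5% against 6.23%, and 22.9% against 7.30%.

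The gamma members were higher in cells with a Klra UMI in both libraries. Cells with any of the 11 Klra genes were 11.3% of control and 23.7% of NK-depleted cells, and they were deeper, with medians of 14462.5 and 13984 UMIs against 10824 and 11547. Tcrg-C4 stood at 11.2 CPM with and 0.718 CPM without Klra in control cells, a ratio of 15.6 (11.7 to 21.0), and at 17.9 and 1.91 CPM in NK-depleted cells, where the ratio was 9.39 (7.92 to 11.2). Thus 74.3% and 78.7% of all Tcrg-C4 UMIs lay in cells with Klra. The ratios of Tcrg-C1 were 3.25 and 4.58, those of Tcrg-C2 3.17 and 3.05, and those of Trgv2 3.09 and 2.88. At 4900 UMIs, a gamma member was found in 31.6% of control and 31.3% of NK-depleted cells with Klra, and in 6.53% and 7.97% of cells without.

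Trdc did not follow this order by CPM in the NK-depleted library. Its CPM in cells with Klra over cells without was 1.75 (1.27 to 2.39) in the control and 0.664 (0.548 to 0.800) in the NK-depleted library, where 546 of 689 UMIs lay in cells without Klra. With and without Klra, these UMIs came from 17 and 39 control cells and from 44 and 91 NK-depleted cells. By thinned share Trdc was more frequent in cells with Klra in both libraries, at 1.85% against 0.352% and at 1.52% against 0.939%. The dendritic cell-like cluster, with 1 Trdc-positive cell per library, allows wide ranges of 0.0189% to 4.09% and 0.0248% to 5.34%, and all these shares lie within them.

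The level of each gamma member grew with the number of Klra UMIs in a cell from 1 UMI upwards. In control cells with 0, 1, 2 to 4 and at least 5 Klra UMIs, Tcrg-C4 stood at 0.718, 1.06, 7.65 and 21.4 CPM. In NK-depleted cells it stood at 1.91, 5.32, 16.0 and 29.1 CPM. Cells with a single Klra UMI were close to cells with none for Trgv2, at 7.74 against 9.39 CPM in the control and 12.5 against 13.2 CPM in the NK-depleted library, and at 5 or more UMIs Trgv2 reached 50.4 and 63.5 CPM. Cells with at least 5 Klra UMIs numbered 328 and 797.

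**Figure D4:**
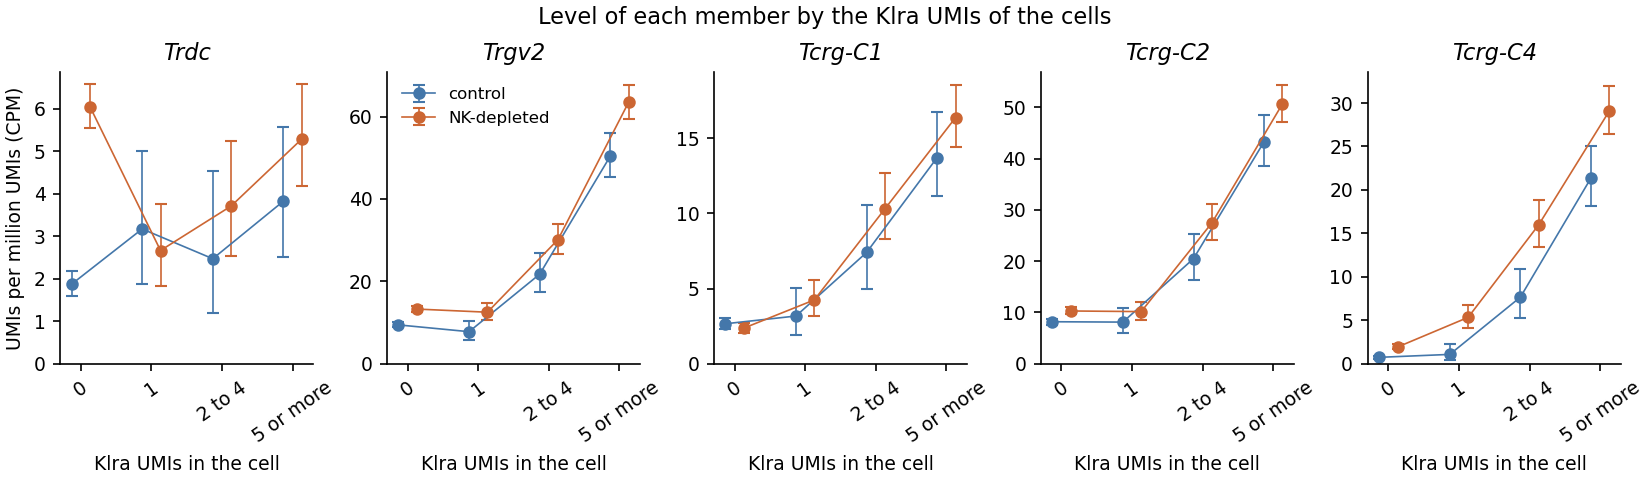
Level in CPM of each member in cells grouped by their summed Klra UMIs, in the control (blue) and NK-depleted (orange) library, with exact 95% Poisson intervals; each panel has its own axis. Tcrg-C4 reached 21.4 and 29.1 CPM at 5 or more Klra UMIs, while Trdc was at 6.05 CPM in NK-depleted cells without Klra and at 5.28 CPM with 5 or more.

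Within cells of 1 Klra class the libraries differed less for some members. Among cells with Klra the NK-depleted over control ratio was 1.60 (1.36 to 1.89) for Tcrg-C4, 1.31 (1.18 to 1.46) for Trgv2, 1.21 (1.08 to 1.36) for Tcrg-C2 and 1.25 (1.03 to 1.53) for Tcrg-C1. The interval of Trdc there included 1, at 1.23 (0.893 to 1.71). Among cells without Klra, Trdc was at 1.87 and 6.05 CPM, a ratio of 3.24 (2.72 to 3.87), and Tcrg-C4 at 0.718 and 1.91 CPM, a ratio of 2.65 (1.98 to 3.59). Trgv2 had a ratio of 1.41 (1.29 to 1.54) and Tcrg-C2 of 1.26 (1.14 to 1.39) in these cells, and Tcrg-C1 was not higher, at 0.890 (0.736 to 1.07). The Trdc UMIs in cells without Klra, 169 and 546, came from 39 and 91 cells, so the Trdc interval there is too narrow. The share of cells with Klra differed between the libraries by itself, and its part in the ratios over all cells was not tested beyond these values.

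Cells with a UMI of Mki67, a gene of cycling cells, were 32.9% of control and 44.8% of NK-depleted cells and had more UMIs, with medians of 18244 and 17618 against 9588 and 9585. Each member had a lower CPM in cells with Mki67 than without in the control library, with ratios of 0.245 for Trdc, 0.463 for Tcrg-C4, 0.567 for Trgv2, 0.574 for Tcrg-C2 and 0.719 for Tcrg-C1. In the NK-depleted library Trdc (0.511), Tcrg-C4 (0.566) and Tcrg-C1 (0.649) were lower, while Trgv2 was at 0.920 (0.850 to 0.996) and Tcrg-C2 at 0.983 (0.899 to 1.08). At 4900 UMIs a gamma member was in 6.63% of control cells with Mki67 and 8.98% without, and in 10.7% and 12.7% of NK-depleted cells. Unthinned, the order turned, to 13.1% against 11.8% and 21.3% against 16.6%.

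For each member but Tcrg-C1, the libraries differed more in CPM among cells with Mki67. There the NK-depleted over control ratio was 4.86 (3.54 to 6.83) for Trdc, 3.32 (2.60 to 4.28) for Tcrg-C4, 2.17 (1.96 to 2.41) for Trgv2 and 2.02 (1.81 to 2.26) for Tcrg-C2. Among cells without Mki67 it was 2.33 (1.94 to 2.79) for Trdc, 2.71 (2.27 to 3.26) for Tcrg-C4, 1.34 (1.22 to 1.47) for Trgv2 and 1.18 (1.07 to 1.31) for Tcrg-C2. The intervals of the 2 classes did not overlap for Trdc, Trgv2 and Tcrg-C2, and the difference between the classes was not tested. These intervals take each UMI as a separate count and are too narrow where few cells hold many UMIs. The 44 and 307 Trdc UMIs in cells with Mki67 came from 14 and 55 cells, so no separation of the classes is read for Trdc. Split further by Klra, the ratios of Trgv2 and Tcrg-C2 in cells without Mki67 were not above 1 beyond counting error. Trgv2 was at 1.02 (0.891 to 1.18) with and 1.08 (0.95 to 1.23) without Klra, and Tcrg-C2 at 0.956 (0.821 to 1.12) and 0.905 (0.784 to 1.04). For Trdc in cells without Mki67 the ratio was 0.929 (0.621 to 1.41) with Klra. Without Klra it was 2.93 (2.40 to 3.61), from 31 and 60 cells with Trdc, so that interval is too narrow as well. Tcrg-C4 stayed above 1 with and without Klra, at 1.48 (1.20 to 1.84) and 2.43 (1.72 to 3.46). Tcrg-C1 was at 1.31 and 1.45 in cells with and without Mki67.

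Clustering without receptor genes gave 17 clusters, and 1 of them, led by Klra7, Klra6, Klra1, Klra9 and Klra3 with Fcer1g (a signalling adaptor of innate receptors), Ikzf2 (Helios) and Cd7, held the highest level of every gamma member. This Ly49-led cluster counted 188 control and 403 NK-depleted cells. Trgv2 stood there at 91.8 (79.1 to 106) and 98.4 (89.5 to 108) CPM, Tcrg-C2 at 89.4 and 75.0 CPM, Tcrg-C4 at 44.7 and 52.1 CPM, and Tcrg-C1 at 27.5 and 26.5 CPM. The summed level of the gamma members was 253 and 252 CPM, so the libraries did not differ there beyond counting error, and the cluster's share of cells was 2.62% and 4.82%. At 4900 UMIs, 58.0% of control and 55.2% of NK-depleted cells of this cluster had a gamma member. Of 7 markers listed for Ly49 T cells, 6 were raised in it, as the clustering itself would give.

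After the Ly49-led cluster the order of clusters differed between members. Cluster 1, led by Tnfsf8, Treml2 and Cxcl10, had Tcrg-C4 at 8.64 and 14.5 CPM and Trgv2 at 26.5 and 26.7 CPM. Cluster 5, led by Actn2, Car2, Itga4 and Gzmk, had Trgv2 at 32.4 CPM and Tcrg-C2 at 29.8 CPM in its 1203 control cells, yet Tcrg-C4 at 0.697 CPM (7 UMIs). Cluster 3, led by the cytokine genes Ccl3, Ccl4 and Ifng, had little Trgv2, at 1.45 and 2.95 CPM (22 and 23 UMIs). Cluster 4, led by the granzyme genes Gzmf and Gzmd, had 27 Trgv2 UMIs in 253 control cells (4.57 CPM) and 411 in 1254 NK-depleted cells (18.5 CPM).

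By CPM, Trdc was highest in the Ly49-led cluster in the control library but not in the NK-depleted one. The naive or central memory T cell-like cluster, with 9 of 9 markers raised, had Trdc at 16.2 (12.5 to 20.7) CPM in the control and 6.97 (4.88 to 9.65) CPM in the NK-depleted library. These 64 and 36 UMIs came from 10 and 12 cells, with up to 21 and 8 in a cell, and the thinned shares of cells with Trdc overlapped, at 1.67% (0.614% to 3.59%) and 1.35% (0.544% to 2.76%). The Ly49-led cluster had it at 21.1 and 14.3 CPM, with thinned shares of 3.87% and 3.32%, the highest of the clusters in both libraries. In the NK-depleted library cluster 5 had Trdc at 17.9 CPM (22 UMIs in 5 cells). Cluster 1 had it there at 10.7 CPM (148 UMIs in 27 cells). Cluster 8, led by Klra5 and Cd163l1, held 118 of the 689 NK-depleted Trdc UMIs at 11.6 CPM, and it counted 46 control and 679 NK-depleted cells. Cluster 0, cycling cell-like, held 170 NK-depleted Trdc UMIs in 23 cells, 1 of which had 51 of them.

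**Figure D5:**
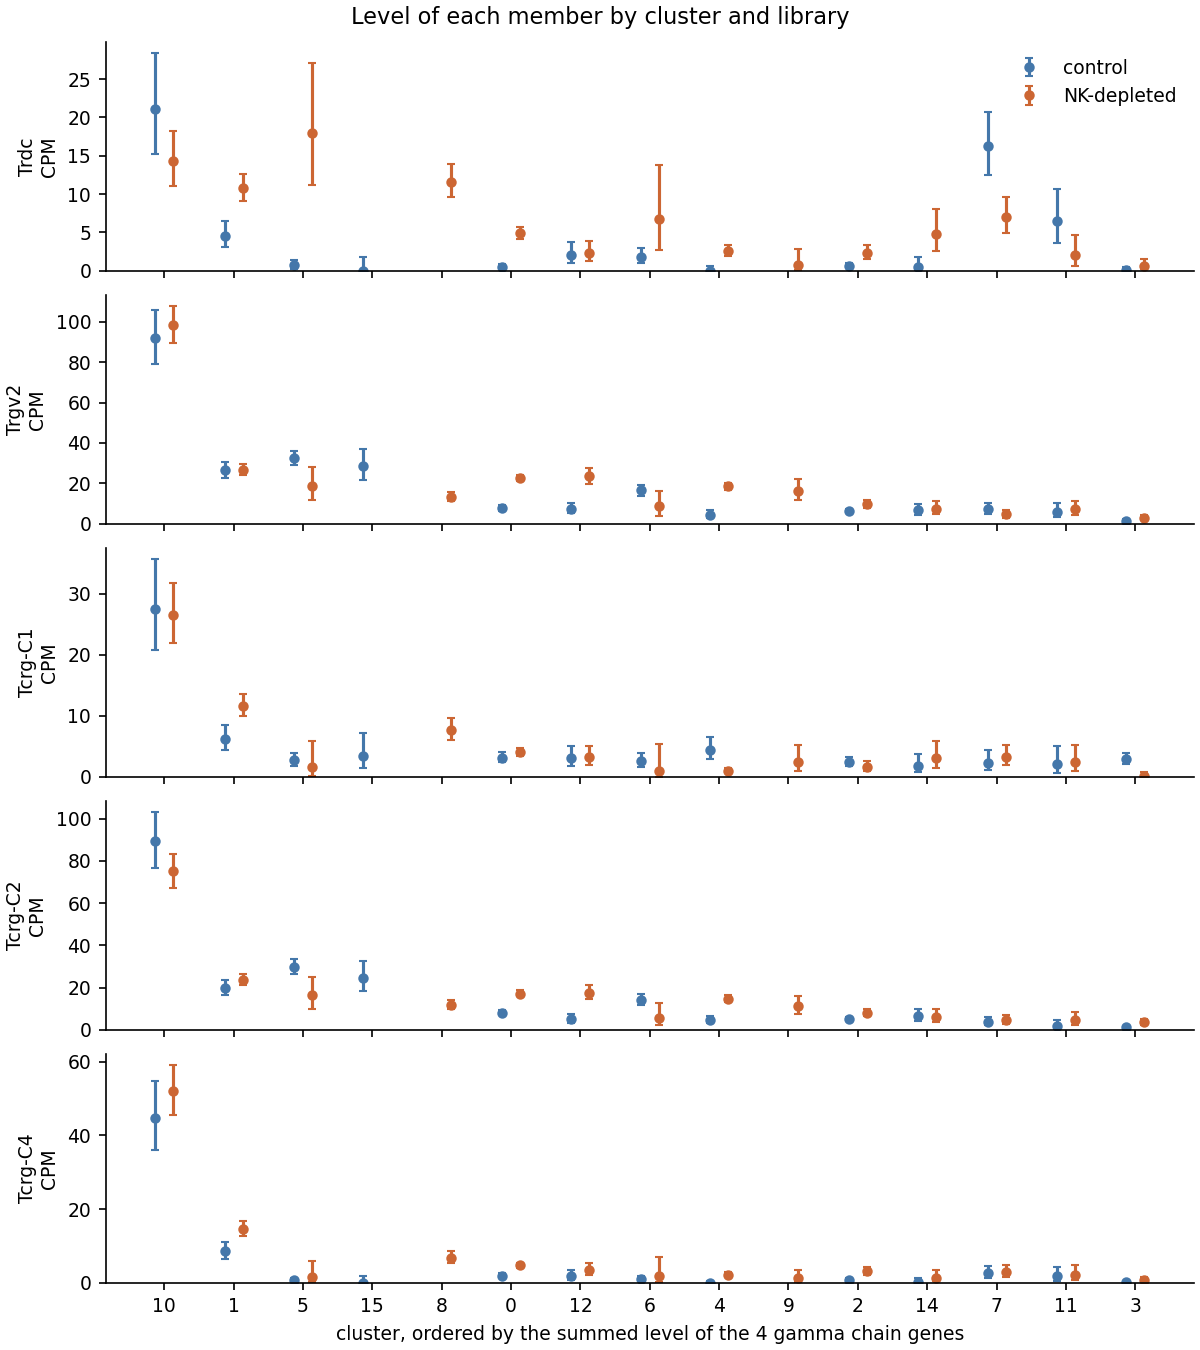
Level in CPM of each member by cluster, ordered by the summed level of the gamma members, in the control (blue) and NK-depleted (orange) library, with exact 95% Poisson intervals; groups with under 50 cells or few UMIs in a library are not drawn. Cluster 10 is the Ly49-led cluster, where Trgv2 stood at 91.8 and 98.4 CPM, and cluster 7 is the naive or central memory T cell-like cluster, where Trdc stood at 16.2 and 6.97 CPM.

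Genes with the most alike pattern were taken by Pearson's r of log2(CPM + 1) over 30 cluster and library sums of at least 50 cells, which share libraries and depths. For Tcrg-C4 these were Klra7 (r = 0.84), Klra6 (0.84), Klra1 (0.84), Klhdc2 (0.73) and Nsg2 (0.73), and for Tcrg-C1 they were Klra7 (0.75), Emid1 (0.73), Klra1 (0.70), Klra6 (0.68) and Ikzf2 (0.68). Tcrg-C2 was nearest to Eya2 (0.73), Parvg, Ly6c2, Rmi2 and Klhl22 among all genes outside the receptor loci, and its r with Trgv2 was 0.92. Trdc was nearest to Kcnj8 (0.81), Klhl6, Gramd4, Pdcd4 and Txk, and its r with Tcrg-C4 was 0.78.

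Cells with Tcrg-C4 differed from cells without it in genes of innate-like T cells. Klrb1a, a lectin-like receptor gene, was at 21.5 against 0.698 CPM in the control library and at 11.2 against 0.565 CPM in the NK-depleted library. Klra1 was 28.6 and 7.97 times higher, Klra9 29.5 and 7.91 times, Klra7 15.3 and 7.54 times and Klra6 22.3 and 6.32 times. The Klra genes did not all go this way: of 8 measured, 5 were at least 1.5-fold higher in both libraries and 2 lower. Of 17 measured genes of the innate-like list, 7 were at least 1.5-fold higher in both libraries and 1 lower, where 3.24% of 12383 genes were higher and 5.4% lower. Ikzf2 was 6.41 and 4.08 times higher, Fcer1g 6.96 and 5.13 times, Cd7 5.27 and 4.86 times and Klrb1c, which encodes NK1.1, the target of the depleting antibody, 17.8 and 4.29 times. Genes at the low end were Prf1 (perforin), at 0.453 and 0.455, and Ccr2 (a chemokine receptor), at 0.416 and 0.471. Rbpms, Aoah and Trat1 were also among the 8 highest.

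Klrb1a, Klra1, Klra7, Klra9 and Klra6 were among the 8 highest genes of Trgv2-positive, Tcrg-C1-positive and Tcrg-C2-positive cells too. Of 8 measured Klra genes, 6 were at least 1.5-fold higher in both libraries for each of these members. Lower by that fold were 2 for Trgv2, 1 for Tcrg-C1 and 2 for Tcrg-C2, and the share over all genes was not taken for these cells. Among genes with at least 30 UMIs in the Trdc-positive cells of each library (56 and 135 cells), which leaves out Klra9 (30 and 6 UMIs), Klra6 (13 and 55) and Klra1 (6 and 31), the highest included Klra7 (2.76 and 2.37 times), Klf3, Irs2, Pde2a, Pim2, Xcl1 and Treml2. Of all genes, 3.02% were at least 1.5-fold higher in Trdc-positive cells of both libraries and 5.8% lower. Tnfrsf4 (OX40) was at 0.357 and 0.336, and the checkpoint genes Lag3 at 0.434 and 0.534 and Havcr2 at 0.541 and 0.510. Of the NK cell receptor gene Ncr1, 8 of 32 control UMIs lay in 3 Trdc-positive cells, and none of 5 NK-depleted UMIs did. Cells with Tcrg-C4 held 9 and 1 of these UMIs. Fcer1g was 3.72 and 1.41 times and Tyrobp, another adaptor, 3.61 and 1.12 times higher in Trdc-positive cells, and the part of these few cells in the Trdc level was not tested.

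Genes of the known gamma delta T cell programme were mostly too low to compare. Sox13, Il17a, Il17f, Il23r and Blk, among them cytokine genes of interleukin 17-producing cells, had 0 to 8 UMIs in a library. Of 16 listed genes 7 had at least 100 UMIs over both libraries, and Cd163l1 (a scavenger receptor) and 5830411N06Rik were higher in the NK-depleted library, at 2.59 against 5.39 CPM and 1.85 against 3.61 CPM, while Sox4 was lower, at 2.15 against 1.09 CPM. These 2 of 7 higher and 1 of 7 lower stand beside 2.75% and 7.19% of all genes. Cd163l1 was 4.89 and 3.84 times higher in Trdc-positive than in Trdc-negative cells. In that comparison 2 of the 7 genes were at least 1.5-fold higher in both libraries and 1 was lower, beside 3.02% and 5.8% of all genes. Of the 2 and 1 cells with Il17a, none had a gamma member or Trdc.

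The genes of signalling through interleukin 7 and STAT5, known from lymphocyte development to open the gamma locus, showed no common direction. The counts of this and the next lists stand beside 2.75% of all genes at least 1.5-fold higher and 7.19% lower. Of 14 measured genes, Il2ra was higher (74.0 and 113 CPM, ratio 1.53) and Runx1 lower (20.5 and 12.9 CPM, ratio 0.628), with a list median log2 ratio of -0.10 beside -0.07 over all genes. Il7r was at 263 and 266 CPM, and in Tcrg-C4-positive against negative cells at ratios of 0.866 and 0.521. Of 9 measured alpha beta receptor and co-receptor genes none reached 1.5-fold, with a median of -0.24. Of 8 measured Klra genes 5 were higher in the NK-depleted library and 1 lower, with a median of 0.86. In the innate-like list none of 17 was higher and Tyrobp, Itgae and Cd7 were lower, Cd7 at 48.7 and 30.9 CPM.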

How the data were processed

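Single-cell RNA was measured in 2 libraries of sorted tumour cells, 1 per group. The deposited files hold raw UMI counts per gene and barcode, made by the authors. The header of the matrix names Cell Ranger 6.1.2. Also named, per the submitters' processing notes, are Seurat 4.0.6 and mm10. Cells were kept with at least 500 genes and under 10% mitochondrial UMIs. Counts were summed per library, cluster or class and divided by all UMIs of the same cells. Ratios carry exact conditional binomial 95% intervals, shares exact Clopper-Pearson intervals and levels exact Poisson intervals. The limit that a count of 0 allows is 3 counts. Each cell was thinned without replacement to 4900 UMIs, and Klra and Mki67 status was taken at the same depth.

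Clustering used scanpy 1.11.5 on 2000 variable genes without receptor segments, immunoglobulin, mitochondrial, ribosomal protein and sex-linked genes, 30 principal components, 15 neighbours and leidenalg 0.10.2 at resolution 1 (0.5 as the alternative). TMM factors came from edgeR 4.0.16. The interval, thinning and fold steps were tested on simulated data. The members and gene lists were chosen with earlier results of these data known. Named genes are the members, the list genes, the 5 genes with the highest r per constant member (genes with at least 500 UMIs) and the 8 with the highest ratio in Trdc-positive cells, taking the smaller library's ratio over genes with at least 30 UMIs in positive cells of each library. The same for cells positive for the other members, and the 8 lowest genes, were chosen after their values were seen. Some genes that these rules name are not reported here. Alternatives were 1000 genes, 5% mitochondrial UMIs, no cell filter, cells with Cd8 and Cd3 UMIs, 3000 UMIs or no thinning, 2 UMIs for a positive cell, other scaling factors, a mean over cells and no minimum count. Gamma members summed are Trgv2, Tcrg-C1, Tcrg-C2 and Tcrg-C4.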

Additional observations from a re-analysis of the deposited data

Results flagged for a closer look

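For 2 members, CPM ratios under the same contrast pointed in opposite directions. The Trdc CPM ratio of cells with over cells without Klra was 1.75 in the control and 0.664 in the NK-depleted library. It rests on 17 and 39 control and 44 and 91 NK-depleted cells with Trdc. By thinned share Trdc was more frequent with Klra in both libraries, at 1.85% against 0.352% and 1.52% against 0.939%. The NK-depleted order turned when 2 or more UMIs were asked of a positive cell. The Tcrg-C1 ratio of NK-depleted over control was 1.25 in cells with Klra and 0.890 in cells without, where its interval included 1. With 1 library per group these differences were not tested.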

How the results depend on the processing

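No paired analysis was possible because each group is 1 library. Leaving out replicates was not possible for the same reason. The log2 ratios of all 5 members kept their direction under every alternative run. Averaging each cell's CPM gave 1.1 for Trdc, 0.41 for Trgv2 and 0.25 for Tcrg-C2. Leaving out the 8% of cells with most UMIs gave 0.54 for Trgv2 and 0.39 for Tcrg-C2. Alternatives chosen after seeing the data left out the 5 cells with most UMIs of the gene (1.69 for Trdc), barcodes found in both libraries (Trdc 1.32, Tcrg-C4 1.41), the Ly49-led cluster (Trdc 1.58, Tcrg-C4 1.62), or the macrophage-like and dendritic-like clusters (Trdc 1.35, Tcrg-C4 1.42). Members at least 1.5-fold higher numbered 2 to 4. With no minimum count 2396 genes were 1.5-fold higher, against 341. At resolution 0.5 the gamma members summed to 102 and 89.2 CPM in their highest cluster, which is larger.

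The difference in gamma-positive share between libraries was 3.59 points, 6.40 without thinning and 1.46 at 2 or more UMIs. The log2 ratio of gamma shares by Klra was 1.88 and 1.53 without thinning and 2.59 and 2.48 at 2 or more UMIs, and for Trdc in the NK-depleted library -0.44 at 2 or more UMIs. By Mki67 it turned from -0.44 to 0.15 in the control and from -0.25 to 0.36 in the NK-depleted library without thinning; for Tcrg-C2 it turned to 0.25 and 0.55, and to 0.013 in the control at 3000 UMIs, and for Tcrg-C4 in the NK-depleted library to 0.025. Without thinning the Cd8b1 gap was -12.2 and -1.69 points for Trdc and -6.17 and -10.1 points for the gamma members, and at 2 or more UMIs -22.7 and -34.3 points for the latter. The Trac gap of Trdc in the NK-depleted library was -2.23 points without thinning and -26.8 at 2 or more UMIs. The Trac gap of gamma-positive cells went to 3.75 points in the control and turned to 3.3 in the NK-depleted library without thinning, where those of Trgv2, Tcrg-C1 and Tcrg-C4 turned to 2.93, 1.53 and 1.13. The unthinned values compare cells of unequal depth.

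The limits are 1 library per group, near-identical gamma constant genes, few Trdc-positive cells and doublets left in, with no caller run.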

Other observations

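Taken by both statuses, the gamma members were highest in cells with Klra and without Mki67. Their summed level was 108 CPM in such control cells and 117 CPM in such NK-depleted cells, and 49.2 and 86.6 CPM in cells with both. In cells without Klra it was 15.6 and 27.8 CPM with Mki67 and 26.1 and 27.7 CPM without. Tcrg-C4 was at 16.4 and 24.2 CPM with Klra and without Mki67, at 0.272 and 1.35 CPM in cells with Mki67 alone and at 1.14 and 2.77 CPM in cells with neither. Trdc was at 0.657 and 4.24 CPM in cells with Mki67 alone, and at 3.02 and 8.86 CPM in cells with neither.

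Klrb1c, the gene of the antibody's target, was at 5.17 CPM in NK-depleted and 3.77 CPM in control cells, a ratio of 1.37 (1.21 to 1.56). It was thus still found after depletion, in 377 NK-depleted cells (651 UMIs) beside 192 control cells (404 UMIs). A gamma member was found in 169 and 79 of these cells, and Trdc in 17 and 8. Of all kept NK-depleted and control cells, unthinned, 18.7% and 12.3% had a gamma member and 1.62% and 0.782% had Trdc. Ncr1, a gene of NK cells, had 5 UMIs in 3 NK-depleted cells and 32 UMIs in 17 control cells.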
